A study of Mus musculus with 7 samples.

Results

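The genes described here are the nuclear genes of respiratory complexes II, III, IV and V, together with cytochrome c and assembly factors of complexes IV and V, in thigh muscle of mice that overexpress a mutant form of Twinkle and of wild-type mice. They were chosen by symbol, and every probe set annotated to 1 of these symbols was taken, with newer names of ATP synthase genes counted as the same gene. Of 45 listed genes, 44 were measured on 92 probe sets, among 18193 genes measured in all. Cox7b, a small subunit of complex IV, had no probe set annotated to 1 symbol and has no value here. The 44 genes comprised 4 of complex II, 9 of complex III, cytochrome c, 6 subunits and 7 assembly factors of complex IV, and 17 genes of complex V.

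Mitochondrial DNA is unwound for its replication by the helicase Twinkle, and dominant mutations in it cause a human muscle disease with deletions of mitochondrial DNA. The mutant group was 3 overexpressors of mutant Twinkle, aged 24, 24 and 21 months in the order of their replicate numbers, and the wild-type group was 4 mice aged 26, 24, 21 and 23 months. Quadriceps femoris RNA of each mouse was labelled and measured on its own Affymetrix array. The series title names mitochondrial myopathy, a starvation response and FGF21, so the comparison asks which genes differ between mutant and wild-type muscle. The promoter that drives the transgene, the strain and the sex of the mice were not given.

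The respiratory chain of the inner mitochondrial membrane passes electrons from NADH and succinate to oxygen and pumps protons, and ATP synthase, or complex V, uses the proton gradient to make ATP. Complexes III, IV and V each combine subunits encoded by nuclear genes with subunits encoded by mitochondrial DNA, whereas all subunits of complex II are nuclear. In human mitochondrial myopathy with deleted mitochondrial DNA, muscle fibres that lack cytochrome c oxidase activity, the activity of complex IV, but keep succinate dehydrogenase, the activity of complex II, are a diagnostic sign. Skeletal muscle is rich in these proteins, and slow and other oxidative fibres hold the most mitochondria.

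The deposited values are log2 values of each probe set relative to its own median over the 7 arrays, so they show how arrays differ and hold no levels. A rough level, recovered from the spacing of the deposited numbers, placed 38 of the 44 genes in the highest class, where the median array lay between 8 and 16 on the log2 scale. Cox10, Cox15, Sco1, Sco2 and Atpaf2 lay between 4 and 8, and Cox7c between 2 and 4. In all, 62 of the 92 probe sets lay in the highest class, 19 in the middle class and 11 in the lowest. A gene's value is the mean of its probe sets in its highest class.

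Titles, source and tissue entries of the 7 samples name muscle, while their free-text descriptions name cerebellum. The highest class held 10 of 10 muscle fibre markers and 1 of 10 measured cerebellum markers, and that 1 was Pvalb, which fast muscle fibres also express. Twnk, the mouse gene of Twinkle, read between -0.15 and 0.44 in mutant muscle and between -0.14 and 0.34 in wild-type muscle. Its difference was 0.04 ± 0.18 (limma, adjusted p = 1.00), and whether its probe set detects the transgene was not tested. On the first principal component of the 17969 genes outside the lists, which carried 52.4% of the variance, mutant replicate 2 and wild-type replicates 1 and 4 had scores of -0.53, -0.42 and -0.23, and the other 4 arrays had scores from 0.08 to 0.58. These 3 arrays, called the low-score arrays below, were set apart after the data were seen and are not a group of the study. A middle probe set of beta-actin read -0.35 to -1.01 in the 3 low-score arrays and 0.00 to 0.79 in the other 4. Slow fibre markers, 12 of 12 measured, averaged -0.08 to 0.38 in the mutant arrays, -2.82 and -1.85 in wild-type replicates 1 and 2, and 0.81 and 0.45 in wild-type replicates 3 and 4. Brown fat markers, 5 of 5 measured, averaged -0.83 to 0.38 in the mutant arrays and -1.31 to 2.23 in the wild-type arrays, highest in wild-type replicate 3. Leukocyte markers, 10 of 10 measured, averaged -0.12, -0.40 and -0.33 in mutant replicate 2 and wild-type replicates 1 and 4, and -0.05 to 0.63 in the other 4 arrays. Adipocyte markers, 7 of 10 measured, averaged -0.25, -0.77 and -0.04 in mutant replicate 2 and wild-type replicates 1 and 4, and -0.07 to 0.76 in the other 4 arrays. The low-score arrays were lowest in 3 of these 7 genes, against 12.1% of all genes. They were also lowest in 3 of 10 muscle fibre, 3 of 10 fibroblast and 3 of 10 leukocyte markers. But they were lowest in 0 of 14 fast fibre, 0 of 12 slow fibre, 0 of 8 satellite cell and 1 of 10 endothelial and mural markers. The same arrays were highest in 3 of the 10 muscle fibre and 5 of the 14 fast fibre markers, against 11.1% of all genes. Ribosomal 18S probe sets averaged 3.19 in mutant replicate 1 and -0.77 to 0.56 in the other arrays. Gapdh 5′ minus 3′ probe sets gave -0.55 in wild-type replicate 3 and -0.04 to 0.09 in the other arrays. For beta-actin the same value was 0.12 in that array and -0.14 to 0.12 in the others. Muscle fibre markers averaged -0.46 in wild-type replicate 3 and -0.03 to 0.12 elsewhere, and fast fibre markers -0.43 and -0.18 to 0.17. The part of these array differences in the values below was not tested beyond the settings named.

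Promoters of several of these genes are textbook targets of nuclear respiratory factor 1 (NRF1) and of the ETS-family factor NRF2, which are known as coordinators of respiratory chain genes. Promoter windows from RefSeq (GRCm38.p6), 250 bases before to 50 bases after the start, were matched for 35 of the 44 genes by symbol, with the first listed window used for each. Letters of the NRF1 motif (GCGCANGCG, both strands) stood in 11 of the 35 windows (31.4%) and in 6.47% of all 27025 promoter windows. Letters of the ETS motif (CCGGAAG, both strands) stood in 13 of the 35 (37.1%) and in 9.12% of all windows. Letters of a YY1 motif (AAGATGGCG) stood in 3 windows (8.57%, against 1.49% of all), and those of an Sp1 motif (GGGCGG) in 15 (42.9%, against 35.9% of all). A window was counted once for each motif whose letters it held, on either strand, and a match shows no binding.

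The parts of 4 promoters upstream of the start are printed because these genes show how differently members vary between arrays below. Cycs encodes the electron carrier, whose averaged probe sets disagreed over the arrays, Uqcrh the complex III gene with the widest range, and Atp5g1 and Atp5g2 the same mature subunit c of ATP synthase. Each is read 5′ to 3′ on the gene's strand, which is the minus strand for all 4, at chr6:50566570-50566819, chr4:116075071-116075320, chr11:96075695-96075881 and chr15:102671048-102671297 (GRCm38.p6), and capitals mark the NRF1 or ETS letters. The Atp5g1 stretch is shorter, at 187 bases, because it stops before the gene's outermost start.
Cycs: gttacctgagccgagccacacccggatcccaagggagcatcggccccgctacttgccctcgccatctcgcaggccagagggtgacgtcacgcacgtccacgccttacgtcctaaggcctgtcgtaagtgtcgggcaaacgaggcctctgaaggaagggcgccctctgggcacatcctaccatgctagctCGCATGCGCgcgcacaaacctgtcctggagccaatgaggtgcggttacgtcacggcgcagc
Uqcrh: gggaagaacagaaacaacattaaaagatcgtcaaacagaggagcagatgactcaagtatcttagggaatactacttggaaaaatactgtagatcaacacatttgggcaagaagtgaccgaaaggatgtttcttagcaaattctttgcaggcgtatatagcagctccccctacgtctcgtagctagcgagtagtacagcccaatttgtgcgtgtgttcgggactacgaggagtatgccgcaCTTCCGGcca
Atp5g1: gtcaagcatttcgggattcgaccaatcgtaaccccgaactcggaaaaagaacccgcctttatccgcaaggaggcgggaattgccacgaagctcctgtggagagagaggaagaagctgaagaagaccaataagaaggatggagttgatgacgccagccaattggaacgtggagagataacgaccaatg
Atp5g2: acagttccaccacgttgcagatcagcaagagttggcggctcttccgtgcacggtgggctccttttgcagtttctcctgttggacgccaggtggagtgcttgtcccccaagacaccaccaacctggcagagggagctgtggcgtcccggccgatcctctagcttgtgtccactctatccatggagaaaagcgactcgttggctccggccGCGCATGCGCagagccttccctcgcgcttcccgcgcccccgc
The Cycs stretch held 1 NRF1 match, the Uqcrh stretch 1 ETS match, and the Atp5g2 stretch 2 overlapping NRF1 matches, 1 on each strand. The Atp5g1 stretch held no letters of either motif.

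No member passed the test of a difference between mutant and wild-type muscle. With limma, adjusted over 18193 genes, 0 of 44 members and 0 genes (0.0% of genes) passed the threshold of 0.05, and every member had an adjusted p of 1.00. At an unadjusted p under 0.05 there were 0 of 44 members, against 263 genes (1.45%). No member had all mutant arrays above or below all wild-type arrays, while 150 genes (0.824%) lay wholly above and 217 (1.19%) wholly below. The differences of the 44 members ranged from -0.13 (Atp5e) to 0.24 (Sco2) in log2. Their median was 0.03, against -0.01 for all genes and 0.01 for the 4733 genes in the highest class. All 44 95% intervals spanned 0, 25 lay within 0.5 either way and 43 within 1 either way. An interval that spans 0 does not show that the groups are alike. In whole muscle, fewer cells of a type and less RNA per cell cannot be told apart.

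The difference was positive for 31 of the 44 members, against 46.4% of all genes and 2568 of the 4733 genes in the highest class. The count of members rested on single arrays, since it was 14 without wild-type replicate 1, 17 without mutant replicate 1 and 35 without wild-type replicate 2. It was 19 with the low-score arrays as a block and 18 within the 4 arrays outside them. Within the 3 low-score arrays it was 21, from mutant replicate 2 alone against wild-type replicates 1 and 4, so the lone mutant array is assumed to vary like the wild-type pair. Without wild-type replicates 1 and 2, the arrays low in slow fibre markers, it was 22 and the median difference was 0.0011. The mean over the 44 members was 0.06, -0.15 and 0.03 in mutant muscle against -0.26, 0.06, 0.07 and -0.11 in wild-type muscle. The 2 lowest means were thus those of wild-type replicate 1 and mutant replicate 2, 1 from each group.

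**Figure D1:**
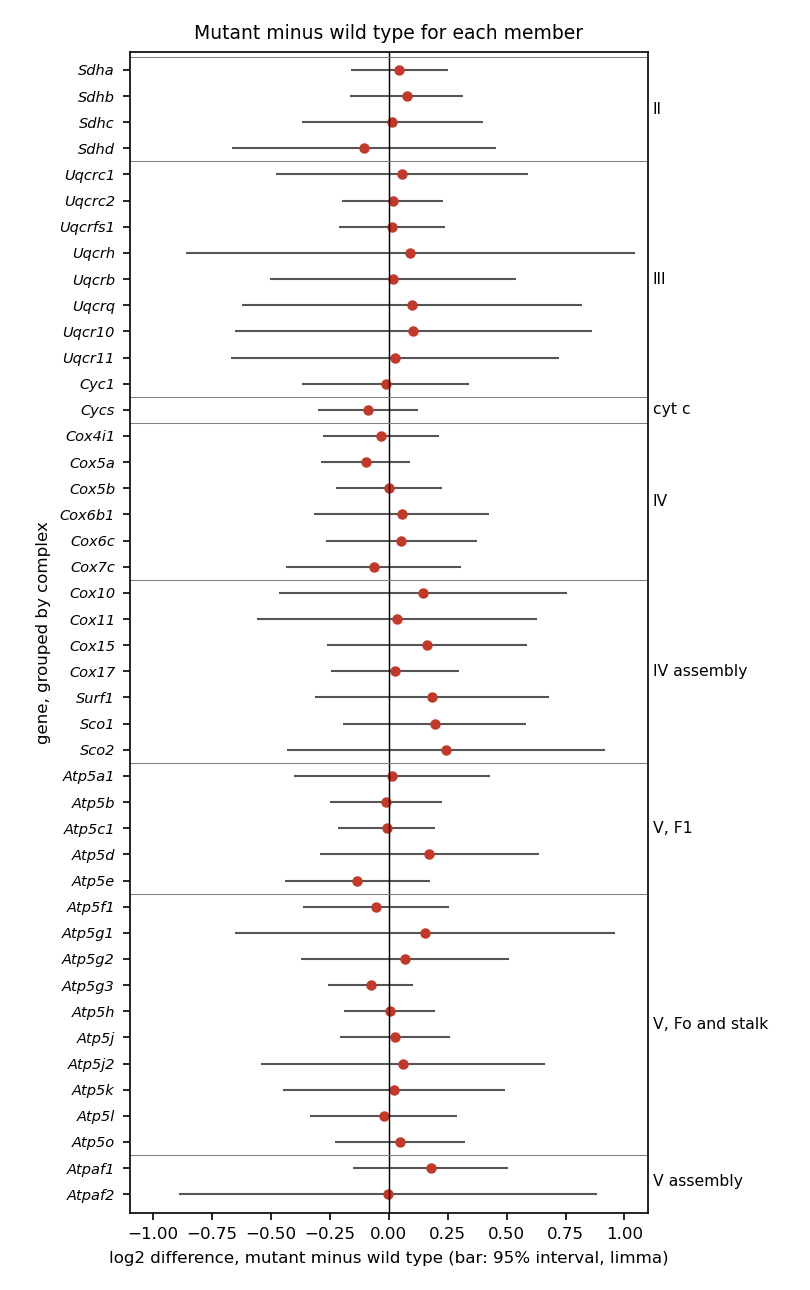
Log2 difference, mutant minus wild type, for each of the 44 measured members, ordered by complex, with the 95% interval from limma as a bar (3 mutant and 4 wild-type arrays). All 44 intervals cross 0, and the widest are those of Uqcrh and Atpaf2.

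The pattern over single arrays did not follow the groups. In 22 of the 44 members the 3 low-score arrays were the 3 lowest, against 12.1% of all genes and 16.2% of the 4733 genes in the highest class. They were the 3 highest in 4 members (Cyc1, Cox11, Cox15 and Atp5f1), against 11.1% of all genes and 18.4% of the genes in the highest class. By complex, the low-score arrays were lowest in 2 of 4 genes of complex II, 7 of 9 of complex III, 4 of 6 subunits and 2 of 7 assembly factors of complex IV, and 7 of 17 genes of complex V. These counts rest on gene means. Taken singly, 32 of the 92 member probe sets had these arrays lowest, and the share over all probe sets was not counted. Sdhc, Uqcrb, Cox5b, Cox6b1, Cox6c, Atp5d and Atp5j2 had the low-score arrays lowest in their mean but in only part of their averaged probe sets. Over the 7 arrays, 6 members had a range above 1 and 9 had a range below 0.3. Among members with a matched promoter, NRF1 letters stood in 6 of 17 where the low-score arrays were lowest and in 5 of 18 where they were not. The ETS letters stood in 8 of 17 and 5 of 18, the YY1 letters in 3 of 17 and 0 of 18, and the Sp1 letters in 5 of 17 and 10 of 18.

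**Figure D2:**
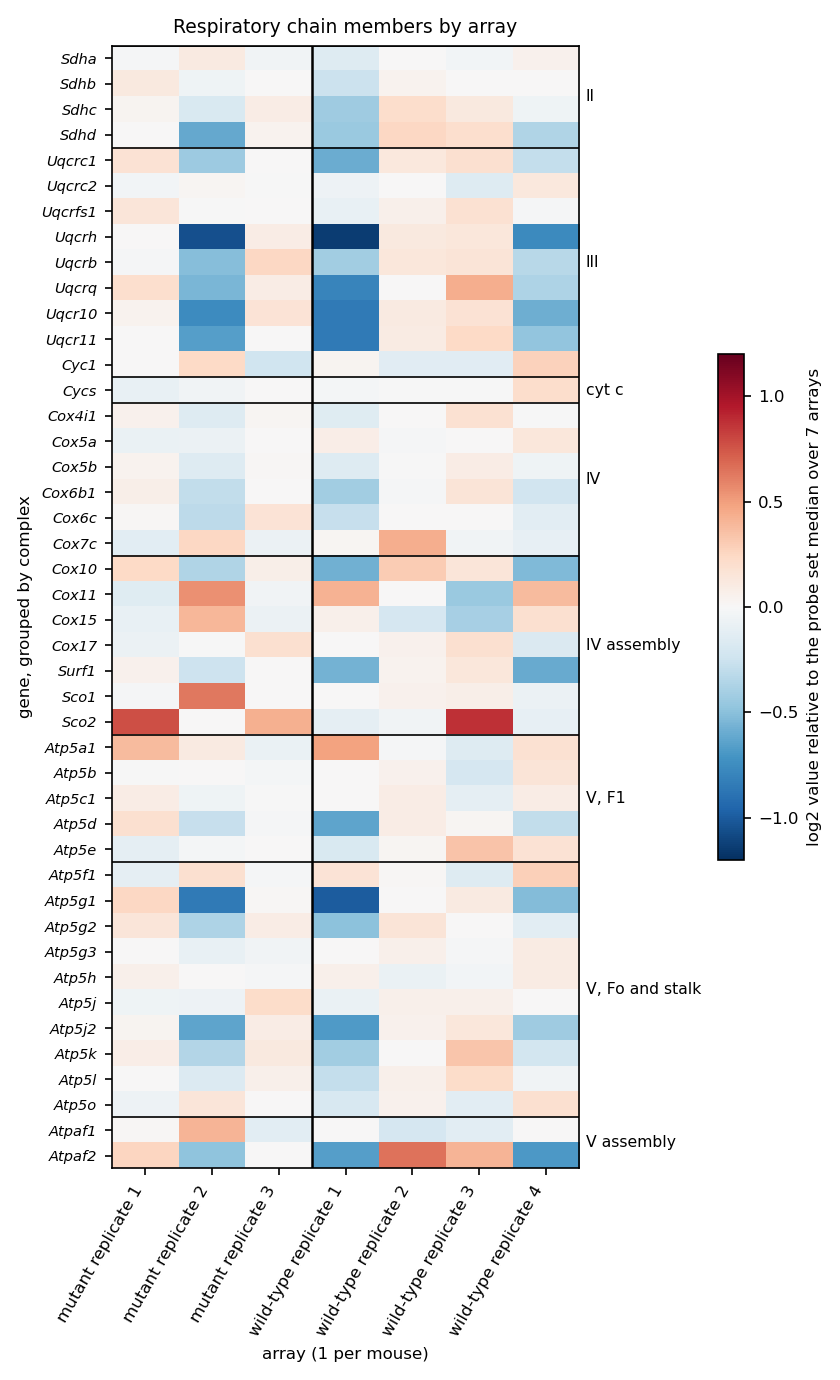
Heat map of the log2 value of each member (rows, ordered by complex) in each array (columns, 3 mutant then 4 wild-type), relative to the probe set median over the 7 arrays, with red above and blue below it. The blue columns are mutant replicate 2 and wild-type replicates 1 and 4, mainly in genes of complex III and in part of complex V.

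Complex II, or succinate dehydrogenase, oxidises succinate in the citric acid cycle and hands its electrons to ubiquinone. Its 4 genes did not pass the test, with 3 positive differences and a median of 0.03. The mean over the 4 genes was 0.03, -0.19 and 0.02 in mutant muscle against -0.32, 0.13, 0.07 and -0.09 in wild-type muscle. Sdha, the flavoprotein that binds succinate, measured -0.02, 0.10 and -0.05 in mutant muscle against -0.15, 0.0042, -0.03 and 0.05 in wild-type muscle. The groups overlapped, with the lowest value in wild-type replicate 1 and the highest in mutant replicate 2. Its difference was 0.05 ± 0.09 (95% interval -0.16 to 0.25). Sdhb, the iron-sulfur subunit, measured 0.12, -0.05 and 0.00 in mutant muscle against -0.26, 0.04, 0.00 and 0.0022 in wild-type muscle. Wild-type replicate 1 lay below the other arrays, and the difference was 0.08 ± 0.10. Sdhd, one of the subunits that anchor the complex in the membrane, measured 0.00, -0.61 and 0.04 in mutant muscle against -0.44, 0.25, 0.21 and -0.36 in wild-type muscle. Here the 3 low-score arrays lay at -0.36 or below and the other 4 at 0.00 or above, with both groups on each side and a difference of -0.11 ± 0.24. This split rests on 1 of the 2 probe sets of Sdhd. Its other probe set, in the middle class and not in the mean, ran the opposite way. The low-score arrays minus the other 4 gave 0.28 there, against -0.60 in the probe set used. Sdhc, the other membrane anchor, had the low-score arrays lowest too, with a difference of 0.01 ± 0.16 and a range of 0.64. The catalytic subunits Sdha and Sdhb ranged over 0.25 and 0.37, the anchors over 0.64 and 0.87.

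Complex III, or cytochrome bc1, takes electrons from ubiquinol to cytochrome c, and its cytochrome b is encoded by mitochondrial DNA. None of its 9 nuclear genes passed, 8 differences were positive by at most 0.10, and the median was 0.03. Single arrays set that median, which became 0.23 when mutant replicate 2 was left out, and -0.08, 0.14 and 0.17 when replicates 1, 2 and 3 of the wild-type group were left out in turn. Complex III was the complex whose arrays spread most, with means of 0.06, -0.41 and 0.04 in mutant muscle against -0.53, 0.06, 0.14 and -0.27 in wild-type muscle. The group means were -0.11 ± 0.27 (SD, n = 3) for mutant and -0.15 ± 0.31 (SD, n = 4) for wild type. Uqcrfs1, the Rieske iron-sulfur protein, measured 0.14, -0.01 and 0.00 in mutant muscle against -0.09, 0.06, 0.18 and -0.02 in wild-type muscle. Its arrays overlapped within a range of 0.27, and the difference was 0.01 ± 0.10. Cyc1, cytochrome c1, measured 0.00, 0.23 and -0.24 in mutant muscle against 0.04, -0.14, -0.13 and 0.28 in wild-type muscle. It ran against most of the complex, since the low-score arrays were its 3 highest, and its difference was -0.01 ± 0.15.

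Uqcrh, the hinge protein that sits beside cytochrome c1, measured 0.00, -1.05 and 0.09 in mutant muscle against -1.14, 0.12, 0.14 and -0.77 in wild-type muscle. Mutant replicate 2 and wild-type replicates 1 and 4 lay at -0.77 or below and the other 4 arrays at 0.00 or above. Its difference was 0.09 ± 0.41 with a 95% interval of -0.86 to 1.04, and its range over the arrays was 1.28. Uqcr10, a small accessory subunit, showed the same split, with 0.04, -0.76 and 0.16 in mutant muscle against -0.85, 0.11, 0.18 and -0.59 in wild-type muscle. Its difference was 0.10 ± 0.32. Uqcrq, another small subunit that contacts cytochrome b, measured 0.20, -0.54 and 0.09 in mutant muscle against -0.79, 0.00, 0.44 and -0.37 in wild-type muscle. Its lowest arrays were again the low-score ones and its difference was 0.10 ± 0.31. Both rest on 1 of the 4 probe sets of Uqcrq. The others, in the middle class, did not have the low-score arrays lowest, and their differences were -0.25, 0.19 and -0.21. Uqcrc1, a core protein on the matrix side, measured 0.18, -0.43 and 0.00 in mutant muscle against -0.59, 0.13, 0.19 and -0.29 in wild-type muscle. Its difference was 0.06 ± 0.23, with the low-score arrays lowest. Uqcr11 and Uqcrb, also small subunits, had the same 3 arrays lowest, with differences of 0.03 ± 0.30 and 0.02 ± 0.22. Uqcrc2, the partner of Uqcrc1 in the core, had a difference of 0.02 ± 0.09 and a range of 0.28, and its 2 probe sets ran in opposite directions over the arrays.

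Cytochrome c shuttles electrons from complex III to complex IV. Cycs, the somatic cytochrome c gene whose promoter is printed above, measured -0.09, -0.04 and 0.0023 in mutant muscle against -0.02, -0.0002, -0.0036 and 0.21 in wild-type muscle. Only wild-type replicate 4 lay more than 0.1 from 0, and the difference was -0.09 ± 0.09 (unadjusted p = 0.36, adjusted p = 1.00 in limma). Its small range of 0.30 is that of a mean over 3 probe sets that disagreed, as described below.

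**Figure D3:**
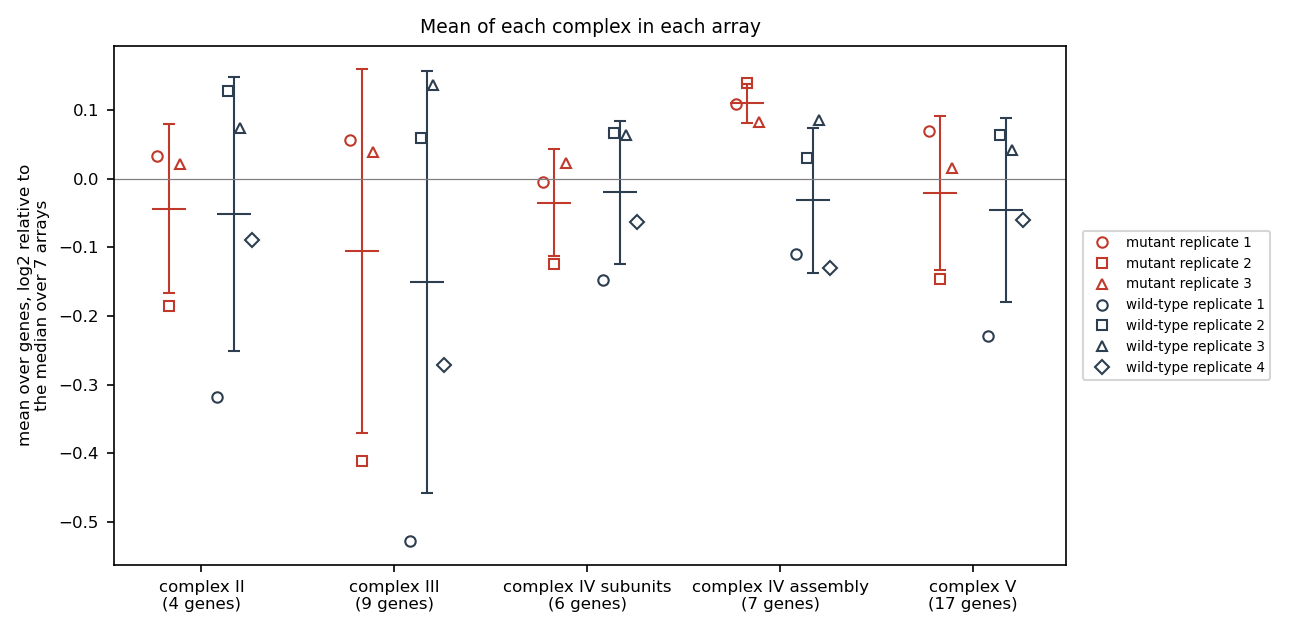
Mean log2 value over the genes of each complex in each array, relative to the median over the 7 arrays; horizontal ticks and bars are the group mean and SD over arrays (mutant n = 3, wild type n = 4). In complex III the means run from -0.53 to 0.14 with both groups at either end, and those of complex IV assembly factors from -0.13 to 0.14. The assembly factor means average genes whose arrays split in different ways. Single genes ranged as widely in both, with a median range over the arrays of 0.79 for assembly factors and 0.78 for complex III.

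Complex IV, or cytochrome c oxidase, reduces oxygen to water, and the large subunits of its catalytic core are encoded by mitochondrial DNA. The nuclear subunits measured here surround that core. None of the 6 passed, 3 differences were positive and 3 negative, and the median was -0.02. The mean over the 6 genes was -0.0046, -0.12 and 0.02 in mutant muscle against -0.15, 0.07, 0.06 and -0.06 in wild-type muscle. Cox4i1, the ubiquitous form of the largest nuclear-encoded subunit, measured 0.05, -0.15 and 0.02 in mutant muscle against -0.14, 0.00, 0.18 and -0.0015 in wild-type muscle. The groups overlapped, and the difference was -0.03 ± 0.11. Cox5a, a subunit on the matrix side, measured -0.08, -0.07 and 0.00 in mutant muscle against 0.08, -0.02, 0.0034 and 0.13 in wild-type muscle. The 3 mutant arrays lay at or below 0.00, and wild-type replicate 2 lay among them. Its difference was -0.10 ± 0.08, with the smallest unadjusted p of the 6 subunits, 0.26 (adjusted p = 1.00 in limma). Cox6c, a small membrane subunit, measured 0.01, -0.32 and 0.17 in mutant muscle against -0.27, 0.00, 0.0033 and -0.13 in wild-type muscle. Its low-score arrays were lowest and its difference was 0.05 ± 0.14. Cox7c, another small membrane subunit, measured -0.13, 0.24 and -0.07 in mutant muscle against 0.03, 0.44, -0.04 and -0.10 in wild-type muscle. It was the only member in the lowest level class, its groups overlapped, and its difference was -0.06 ± 0.16. Cox5b, a zinc-binding matrix-side subunit, and Cox6b1, which faces the intermembrane space, had the low-score arrays lowest in their gene means. Their differences were 0.0012 ± 0.10 and 0.05 ± 0.16. The low-score arrays minus the other arrays ran from -0.66 to 0.10 over the averaged probe sets of Cox5b, and from -0.67 to -0.06 for Cox6b1.

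Assembly factors insert haem a and copper into the catalytic core of complex IV. None of the 7 passed, but all 7 differences were positive, from 0.03 (Cox17) to 0.24 (Sco2), with a median of 0.16, against 46.4% of all genes with a positive difference. The mean over the 7 genes was 0.11, 0.14 and 0.08 in mutant muscle against -0.11, 0.03, 0.09 and -0.13 in wild-type muscle. The mutant arrays were above 3 of the 4 wild-type arrays, and wild-type replicate 3 lay among them. The median difference was 0.05 without mutant replicate 2 and -0.06 within the 4 arrays outside the low-score set. Sco1, a copper chaperone, measured -0.01, 0.63 and 0.00 in mutant muscle against 0.00, 0.05, 0.07 and -0.07 in wild-type muscle. Mutant replicate 2 alone lay far from the rest, the other 6 arrays lay between -0.08 and 0.07, and the difference was 0.20 ± 0.17 (unadjusted p = 0.28). Within the 4 other arrays its difference was -0.07. Surf1, whose human mutations cause Leigh syndrome, measured 0.05, -0.25 and 0.00 in mutant muscle against -0.57, 0.04, 0.14 and -0.60 in wild-type muscle. The low-score arrays were lowest, the difference was 0.18 ± 0.21, and it was -0.06 within the other 4 arrays.

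Cox15, which completes haem a, measured -0.09, 0.40 and -0.07 in mutant muscle against 0.07, -0.20, -0.39 and 0.19 in wild-type muscle. Its difference was 0.16 ± 0.18, it was 0.21 within the other 4 arrays, and its low-score arrays were the 3 highest. Cox10, which makes the haem o that Cox15 uses, had the low-score arrays lowest and a difference of 0.15 ± 0.26. Sco2, the relative of Sco1, had the largest difference of all members, 0.24 ± 0.29, but 3 arrays from both groups, mutant replicates 1 and 3 and wild-type replicate 3, lay at 0.43 or above and the other 4 at 0.00 or below. Cox11 and Cox17, both copper proteins, had differences of 0.03 ± 0.25 and 0.03 ± 0.12, and Cox11 had the low-score arrays highest. The 7 positive differences thus came from arrays that split in different ways from gene to gene.

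Complex V, or ATP synthase, has a catalytic F1 head, a membrane Fo part with a ring of c subunits, and a stalk between them. None of its 17 genes passed, 10 differences were positive and 7 negative, and the median was 0.01. The mean over the 17 genes was 0.07, -0.15 and 0.02 in mutant muscle against -0.23, 0.06, 0.04 and -0.06 in wild-type muscle. In the F1 head, Atp5a1, the alpha subunit, measured 0.38, 0.11 and -0.08 in mutant muscle against 0.48, -0.01, -0.16 and 0.18 in wild-type muscle. Mutant replicate 1 and wild-type replicate 1 were highest, 1 from each group, which came from 1 of its 3 averaged probe sets, at 1.15 and 1.11 in those arrays. Another read 0.00 in both, and the third 0.00 and 0.34. The difference was 0.01 ± 0.18. Atp5b, the catalytic beta subunit, measured -0.01, 0.00 and -0.03 in mutant muscle against 0.0004, 0.05, -0.20 and 0.15 in wild-type muscle. The mutant arrays lay within 0.03 of 0, inside the span of the wild-type arrays, and the difference was -0.01 ± 0.10 (95% interval -0.25 to 0.22). Atp5e, the epsilon subunit, measured -0.10, -0.02 and 0.00 in mutant muscle against -0.18, 0.03, 0.35 and 0.18 in wild-type muscle. Its difference of -0.13 ± 0.13 was the lowest of all members, with wild-type replicate 1 below the mutant arrays and the other 3 wild-type arrays above them. Atp5c1, the gamma subunit of the rotor, had a difference of -0.01 ± 0.09, and Atp5d, the delta subunit, one of 0.17 ± 0.20 with the low-score arrays lowest.

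Atp5g1, Atp5g2 and Atp5g3 encode the same mature c subunit with different import sequences, and their arrays spread very differently. The value of each gene rests on 1 probe set. Probe sets left out of the mean, all in the lowest class, did not show the split described here. In them the low-score arrays minus the other 4 gave 0.01 for Atp5g1, and -0.01 and 0.05 for Atp5g2. Atp5g1 measured 0.25, -0.85 and 0.02 in mutant muscle against -0.997, 0.00, 0.11 and -0.52 in wild-type muscle. The low-score arrays lay at -0.52 or below, the other 4 at 0.00 or above, and the difference was 0.15 ± 0.34 (95% interval -0.65 to 0.96). Atp5g2 measured 0.14, -0.37 and 0.09 in mutant muscle against -0.49, 0.16, 0.00 and -0.13 in wild-type muscle. It had the same split, less wide, and a difference of 0.07 ± 0.19. Atp5g3 measured 0.01, -0.09 and -0.04 in mutant muscle against 0.00, 0.06, -0.01 and 0.10 in wild-type muscle. No array lay more than 0.11 from 0, and the difference was -0.08 ± 0.08 (95% interval -0.26 to 0.10). The ranges over the arrays were thus 1.24, 0.65 and 0.19, and in none of the 3 did mutant and wild-type arrays separate. Of the Atp5g1 and Atp5g2 promoters printed above, the NRF1 letters stood only in that of Atp5g2, and the Atp5g3 window also held them.

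In the rest of Fo and the stalk, differences ran from -0.05 (Atp5f1) to 0.06 (Atp5j2). Atp5j2, Atp5k and Atp5l, the small membrane subunits f, e and g, had the low-score arrays lowest, with differences of 0.06 ± 0.26, 0.02 ± 0.20 and -0.02 ± 0.13. Atp5f1 (named Atp5pb in the RefSeq table), Atp5h, Atp5j and Atp5o, the stalk subunits b, d, F6 and OSCP, had differences of -0.05 ± 0.13, 0.0031 ± 0.08, 0.03 ± 0.10 and 0.05 ± 0.12. Their ranges were 0.45, 0.18, 0.30 and 0.38, and in none of the stalk genes were the low-score arrays lowest in the gene's mean. The means of Atp5f1, Atp5h and Atp5o combine probe sets that disagreed. Their low-score arrays minus the other arrays gave -0.01 and 0.58 for Atp5f1, -0.25 and 0.39 for Atp5h, and -0.17 and 0.34 for Atp5o. A probe set of Atp5h did have the low-score arrays lowest. Atpaf1, the assembly factor that holds the beta subunit, measured 0.01, 0.41 and -0.13 in mutant muscle against 0.00, -0.20, -0.13 and 0.01 in wild-type muscle. It had the smallest unadjusted p of all members, 0.24 (adjusted p = 1.00 in limma), with a difference of 0.18 ± 0.14, and 3 of the 4 wild-type arrays lay inside the span of the mutant arrays. Atpaf2, which holds the alpha subunit, measured 0.25, -0.48 and 0.00 in mutant muscle against -0.66, 0.65, 0.41 and -0.69 in wild-type muscle. It had the widest range of all members, 1.34, and a difference of -0.0029 ± 0.38.

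Probe sets of 1 gene did not always agree over the same arrays. Of the 21 members averaged over more than 1 probe set, 9 combined probe sets of opposite sign in the low-score arrays minus the other 4. For Atp5j2 this value was -1.24 in one probe set and -0.08 in the other, and for Uqcrb it was -1.01 and -0.09. For Cycs it ran from -0.48 to 0.42 over 3 probe sets, for Uqcrc2 from -0.31 to 0.46, and for Atp5h from -0.25 to 0.39. Uqcrh and Uqcr10, in contrast, had probe sets that stayed close, at -1.16 and -0.99 and at -0.91 and -0.80. In the mutant minus wild-type difference, the probe sets of a member lay at most 0.44 apart, the widest span being that of Uqcrq. Several of these genes have processed copies elsewhere in the genome, and what the probe sets share with them was not examined. Fitted one by one, 0 of 45037 probe sets (0.0%) passed with limma. At an unadjusted p under 0.05 there was 1 of the 92 member probe sets, against 1.98% of all probe sets. It was 1 of the 4 probe sets of Uqcrq, in the middle class and not in the gene's mean, at -0.21 ± 0.08 (unadjusted p = 0.038).

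**Figure D4:**
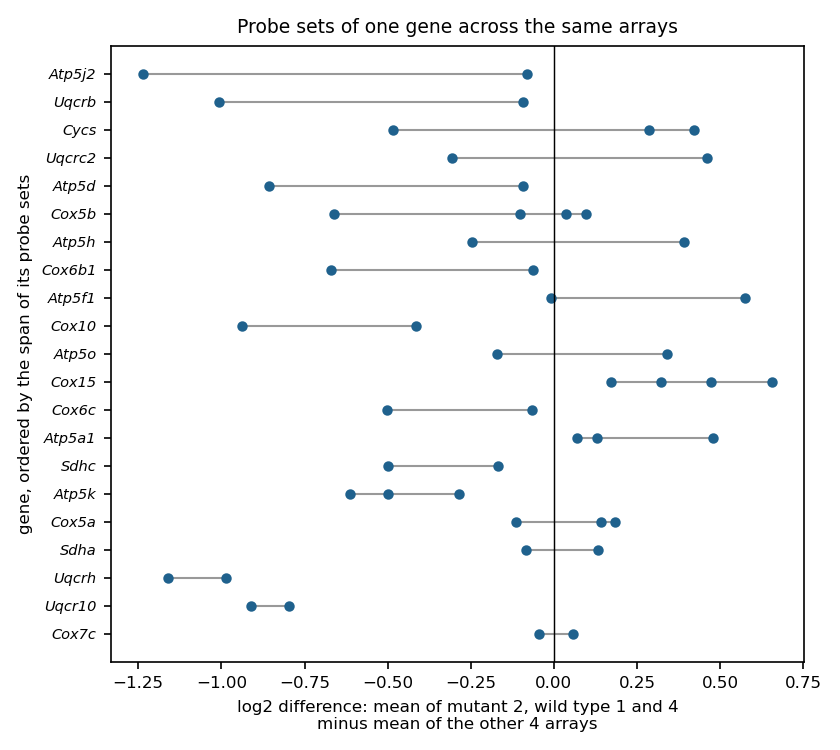
For each of the 21 members averaged over more than 1 probe set, the points are its probe sets and the x axis is the mean of the 3 low-score arrays minus the mean of the other 4 (log2). The probe sets of Atp5j2 lie 1.15 apart, and those of Cox7c 0.10 apart.

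Further genes of these complexes were counted in the same way. Of 10 further assembly genes of complexes II and III, 6 differences were positive with a median of 0.04, and the smallest p was that of Uqcc1, a factor for cytochrome b, at 0.17 ± 0.10, followed by Sdhaf3, a factor for the iron-sulfur subunit, at 0.22 ± 0.14. Of 11 further isoform genes of complex IV, 5 were positive with a median of -0.03, led by Cox7b2 at 0.12 ± 0.08 and Cox8c at -0.26 ± 0.30. Cox7b2 lay in the lowest level class, and Cox8c read -1.02 in mutant replicate 2 against 0.39 and 0.00 in mutant replicates 1 and 3. Of 17 further assembly genes of complex IV, 14 were measured and 9 were positive with a median of 0.05, led by Lrpprc, which stabilises mitochondrial mRNAs, at 0.17 ± 0.12 and Cmc2 at 0.17 ± 0.14. Of 6 further genes of complex V, 3 were positive with a median of 0.01, led by Atpif1, the inhibitor of ATP hydrolysis, at 0.11 ± 0.09 and Tmem70, an assembly factor, at -0.12 ± 0.15. No gene of these lists passed the adjusted test or an unadjusted p under 0.05.

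Complex I, the NADH dehydrogenase, is the largest of the chain and also combines nuclear and mitochondrial subunits. Of its 36 listed nuclear subunit genes, 33 were measured, 18 differences were positive and 15 negative, the median was 0.02, and 0 passed. Its smallest p belonged to Ndufa5 at 0.14 ± 0.09 and Ndufb10 at 0.13 ± 0.10. The low-score arrays were lowest in 15 of the 33 genes. They were lowest in 5 of the 11 further isoform genes and 5 of the 14 further assembly genes of complex IV, in 2 of the 6 further genes of complex V, and in 1 of the 10 further assembly genes of complexes II and III, against 12.1% of all genes. Complex II, which needs no mitochondrially encoded partner, had a median of 0.03, beside 0.03, -0.02, 0.01 and 0.02 for the subunits of complexes III and IV, for complex V and for complex I. With 1 array left out, these medians ran from -0.05 to 0.10 for complex II, -0.08 to 0.23 for complex III, -0.06 to 0.05 for complex IV subunits and -0.04 to 0.04 for complex V, so the sign of each rested on single arrays. Differences between complexes were not tested. Of the 13 mitochondrially encoded proteins, 1 was measured, ND5 of complex I, at 0.00, 0.05 and 0.02 in mutant muscle against 0.00, -0.06, -0.28 and 0.18 in wild-type muscle. Its difference was 0.06 ± 0.12, and wild-type replicate 3 was lowest.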

How the data were processed

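RNA of 7 quadriceps samples was measured on 7 single-colour arrays. The deposited values are log2 values, centred by the authors probe set by probe set, as the values show, since all 45101 probe sets had a median of 0. Per the submitters' processing notes GCOS 4.0 was used. The summary, scaling and centring steps are not given in the sources used here. Precision is limited by the number of arrays.

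Groups and replicate numbers came from the titles, which call the arrays biological replicates. Of 45101 probe sets, 64 were controls, 34958 had 1 gene symbol in the platform annotation, 932 several and 9211 none. Symbols were updated by Entrez identifier from a RefSeq table (GRCm38.p6), which held 34741 of them. The median array's level class (2 to 4, 4 to 8 or 8 to 16 on the log2 scale) was recovered from the spacing of single-precision numbers and held 19618, 18431 and 7052 probe sets. Each of 18193 genes, 9010 of them with more than 1 probe set, took the average of the probe sets in its highest class. Tests used limma 3.58.1 in R 4.3.3 (lmFit, eBayes), two-sided, with no covariate or filter and Benjamini-Hochberg adjustment over all genes, or over the 45037 probe sets. Errors of differences are limma's standard errors and intervals are 95%. Means over complexes were not tested. The code was tested on simulated data.

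The text gives every array for core subunits, for the 3 members with the smallest p in each complex group, for the 3 with the widest range and for the 3 subunit c genes, and in other lists names the 2 genes with the smallest p. The members, lists and rules were chosen with earlier results of these data known. Alternatives were a replicate block, each array left out, age, quantile normalization, all probe sets averaged, single probe sets, a variance trend, array weights, dim genes removed and wild-type replicates 1 and 2 removed. The low-score arrays as a block, fits within and outside them, and the default array weights were added after the data were seen.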

Additional observations from a re-analysis of the deposited data

Results flagged for a closer look

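Among 30 results examined for an array far from its group in the wild-type group of 4, 2 were set apart by Dixon's criterion, for which chance gives about 5% of such groups. Sdhb read -0.26 in wild-type replicate 1, with a gap of 0.866 of the group's range to the nearest array. Cycs read 0.21 in wild-type replicate 4, with a gap of 0.912 of the range. The mutant group of 3 was not examined in this way.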

How the results depend on the processing

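No member passed the adjusted test under any of the settings run, and the smallest adjusted p of a member ran from 0.0775 with default array weights to 1.00. Genes called stayed at 0 except with the default array weights, a fit that stopped before convergence, with 1 gene. Members with an unadjusted p under 0.05 numbered 21 of 44 with those default weights (26.4% of all genes), 4 within the 3 low-score arrays (19.2% of all genes), where the mutant arm is 1 array, 2 with array weights (9.23%), 2 with the low-score arrays as a block (5.03%), and 0 or 1 elsewhere. The median difference of complex III, 0.03, was 0.42 with the default weights, 0.37 with array weights and -0.084 to 0.23 with 1 array left out. With 1 array left out the median of complex II ran from -0.055 to 0.10, of complex IV subunits from -0.062 to 0.045 and of complex V from -0.039 to 0.044. That of complex IV assembly factors, 0.16, was 0.25 with the default weights, -0.059 within the 4 arrays outside the low-score set, and 0.047 to 0.22 with 1 array left out. The cause was not tested. The named members, none of which passed, often turned sign. With age as a covariate these were Uqcrfs1 at -0.0005, Cyc1 at 0.012, Atp5b at 0.001 and Uqcrh at -0.013. With the low-score arrays as a block they were Uqcrfs1 at -0.010, Cyc1 at 0.040, Atp5b at 0.0038, Uqcr10 at -0.040, Uqcrq at -0.029, Uqcrc1 at -0.040, Uqcrh at -0.090 and Atp5g2 at -0.0013. With array weights they were Sdha at -0.011, Cox4i1 at 0.036, Atp5a1 at -0.19, Sdhd at 0.21, Cox15 at -0.079, Atpaf1 at -0.022 and Atpaf2 at 0.37, with quantile normalization Cox4i1 at 0.017, Atp5a1 at -0.0085 and Atpaf2 at 0.010, and with all probe sets of a gene averaged Uqcrq at -0.043 and Atp5g2 at -0.069. Without wild-type replicates 1 and 2 they were Uqcrfs1 at -0.036, Atp5b at 0.014, Uqcrq at -0.12, Uqcrc1 at -0.035, Cox7c at 0.088, Atpaf2 at 0.066 and Uqcrh at -0.0071. Ranges with 1 array left out that crossed 0 were Uqcrfs1 -0.036 to 0.062, Cyc1 -0.13 to 0.11, Cox4i1 -0.086 to 0.029, Atp5a1 -0.11 to 0.13, Atp5b -0.080 to 0.038, Sdhd -0.22 to 0.11, Uqcr10 -0.084 to 0.39, Uqcrq -0.11 to 0.33, Uqcrc1 -0.10 to 0.23, Cox7c -0.18 to 0.055, Cox6c -0.054 to 0.19, Sco1 -0.018 to 0.31, Atpaf2 -0.21 to 0.24, Uqcrh -0.15 to 0.46, Atp5g1 -0.066 to 0.48 and Atp5g2 -0.056 to 0.23. No named member turned with the variance trend or among genes at 4 and above.

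Over all genes, deviations of same-numbered arrays from their group means correlated at -0.466, -0.283 and 0.13. The split of the low-score arrays from the others enters these values, so they cannot decide whether replicate numbers pair the samples. With the replicate block 0 genes were called, and 100 instead of 263 had an unadjusted p under 0.05 in limma. In that fit 27 of 44 members had a positive difference, and Uqcrfs1 at -0.0041, Cyc1 at 0.076, Atp5b at 0.038 and Uqcrh at -0.026 turned sign. Wild-type replicate 4 has no same-numbered mutant array, so the block takes it out of the difference. Leaving that array out without a block gave the same 4 values and the same 27 of 44. The turned signs therefore show nothing about pairing. The number of arrays limits what could be detected.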
